A study of Mus musculus with 9 samples.

Results

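The Dlk1-Meg3 cluster is a stretch of mouse chromosome 12 in which each gene is read mainly from the copy inherited from 1 parent. Its 6 listed genes, Dlk1, Rtl1, Dio3, Meg3, Rian and Mirg, were chosen by name, on earlier results of these data, out of the 43472 genes of a table of raw read counts from skeletal tissue. The 9 libraries came from C57BL/6J mice, with 3 libraries each of bone (Bone, labelled osteoblasts), mature cartilage (MatC, labelled mature chondrocytes) and immature cartilage (ImC, labelled immature chondrocytes). No treatment or mutation is named in the labels, and neither are the skeletal site, the age or the stage. Whether the 3 libraries of a tissue are from separate animals is not stated, and a p-value here reflects variation among libraries that may be purely technical. Because these are bulk samples, fewer cells of a type and less RNA per cell cannot be told apart.

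As background, the protein-coding genes Dlk1, Rtl1 and Dio3 are expressed from the paternal copy, and the noncoding genes Meg3, Rian and Mirg from the maternal copy. A methylated control region between Dlk1 and Meg3 sets that choice of parent, and the zinc finger protein ZFP57 keeps such regions methylated by binding the bases TGCCGC. The maternal noncoding RNAs carry a large set of microRNAs and small nucleolar RNAs (snoRNAs), which guide chemical marks on other RNAs. Dlk1 is a Notch-related surface protein of immature mesenchymal cells, and Meg3 is a long noncoding RNA that interacts with the gene-silencing Polycomb complex. The count table does not separate the parental copies.

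The 6 genes lie in the order Dlk1, Meg3, Rtl1, Rian, Mirg and Dio3 over 828 kb (GRCm38, GENCODE M21 annotation). Dlk1 (chr12:109452823-109463336), Meg3 (chr12:109541001-109571726), Rian (chr12:109603940-109661716), Mirg (chr12:109729764-109749460) and Dio3 (chr12:110279068-110281097) are on the plus strand, and Rtl1 (chr12:109589193-109600330) is on the minus strand. The regions at the starts of Dlk1, Meg3 and Rian are shown because Dlk1 and Rian gave the steadiest ratio of reads of any pair over the 6 cartilage libraries, and Meg3 the highest level in cartilage. Each runs from 250 bases before to 50 bases after the start on the plus strand (RefSeq, GRCm38.p6), and capitals mark matches to TGCCGC, the ZFP57 motif, or to TATAAA, a box found in the core of some promoters, on either strand.
Dlk1, chr12:109452573-109452872: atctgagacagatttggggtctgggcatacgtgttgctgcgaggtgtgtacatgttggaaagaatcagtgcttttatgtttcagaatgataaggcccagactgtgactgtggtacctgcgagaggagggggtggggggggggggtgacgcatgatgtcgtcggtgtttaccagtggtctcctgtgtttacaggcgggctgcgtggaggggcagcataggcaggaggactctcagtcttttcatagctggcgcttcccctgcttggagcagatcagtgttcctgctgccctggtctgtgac
Meg3, chr12:109540746-109541045: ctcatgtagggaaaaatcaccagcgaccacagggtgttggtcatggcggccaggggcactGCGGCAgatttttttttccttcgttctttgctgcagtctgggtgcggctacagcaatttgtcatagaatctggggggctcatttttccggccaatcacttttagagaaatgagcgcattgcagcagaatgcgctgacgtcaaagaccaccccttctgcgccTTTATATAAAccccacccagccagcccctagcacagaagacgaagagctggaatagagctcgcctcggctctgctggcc
Rian, chr12:109603695-109603994: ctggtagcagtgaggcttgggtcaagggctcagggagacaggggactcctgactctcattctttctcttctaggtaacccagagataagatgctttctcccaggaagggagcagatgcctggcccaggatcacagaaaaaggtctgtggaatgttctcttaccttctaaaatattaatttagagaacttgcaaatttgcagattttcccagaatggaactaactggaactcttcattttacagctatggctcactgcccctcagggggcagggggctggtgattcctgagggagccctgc
The Meg3 region held 1 TGCCGC match, read on the minus strand, and 2 TATAAA matches, 1 on each strand, that overlap each other. Neither motif was in the Dlk1 or Rian window. Of 32851 RefSeq promoters of the same length, 11.6% held TGCCGC and 13.6% held TATAAA. The counts of the dinucleotide CG in these windows were 9 for Dlk1, 13 for Meg3 and 0 for Rian. The median over all these promoters was 7. A second RefSeq window of Meg3 (chr12:109545148-109545447), not shown, held neither motif and had 1 CG. A match is a run of letters and not a measured binding site.

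The 9 libraries held between 7913684 counts (Bone replicate 2) and 23159547 counts (MatC replicate 2). Mitochondrial transcripts made up 7.24% to 8.91% of these in Bone, 33.7% to 82.3% in MatC and 32.0% to 55.0% in ImC. MatC replicate 3 stood apart with 82.3% mitochondrial counts. There 3 reads equalled 0.849 CPM (counts per 1000000, after scaling of the libraries), against at most 0.257 CPM in every other library. The tissue labels were checked against marker genes: Col1a1, the main bone collagen, had 19752 to 23189 CPM in Bone, 163.8 to 7726 CPM in MatC and 100.1 to 366.8 CPM in ImC. Acan, the cartilage proteoglycan, had at most 1.91 CPM in Bone and at least 630.0 CPM in each cartilage library. Col10a1, the collagen of mature cartilage, had 816.9 to 4760 CPM in MatC, at most 2.48 CPM in Bone and at most 0.750 CPM in ImC. Bglap, an osteoblast marker, was nearly absent in all tissues, with 0.676 to 3.14 CPM in Bone. Summed markers of red blood cells were also highest in Bone (6434 to 9210 CPM, against 873.8 to 3496 CPM in MatC and 9.999 to 1424 CPM in ImC). Those of osteoclasts were 486.1 to 1074 CPM in Bone, 33.1 to 589.5 CPM in MatC and 5.51 to 8.83 CPM in ImC. Bone and MatC overlapped in the osteoclast sum. The part of both cell types in the results below was not tested.

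The cluster as a whole was lowest in Bone and highest in ImC. All reads counted in its 95 gene entries made up 0.00502%, 0.00282% and 0.0225% of the counts in Bone replicates 1 to 3, 0.109%, 0.102% and 0.0552% in MatC, and 0.710%, 0.899% and 0.878% in ImC. With mitochondrial counts left out of the total, the shares were 0.00545%, 0.00304% and 0.0247% in Bone, 0.165%, 0.330% and 0.312% in MatC, and 1.30%, 1.32% and 1.95% in ImC. On both scales the 3 tissues did not overlap. Meg3 alone gave 28.3% to 36.8% of the cluster's reads in Bone, 47.1% to 75.3% in MatC and 63.2% to 85.2% in ImC.

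**Figure D1:**
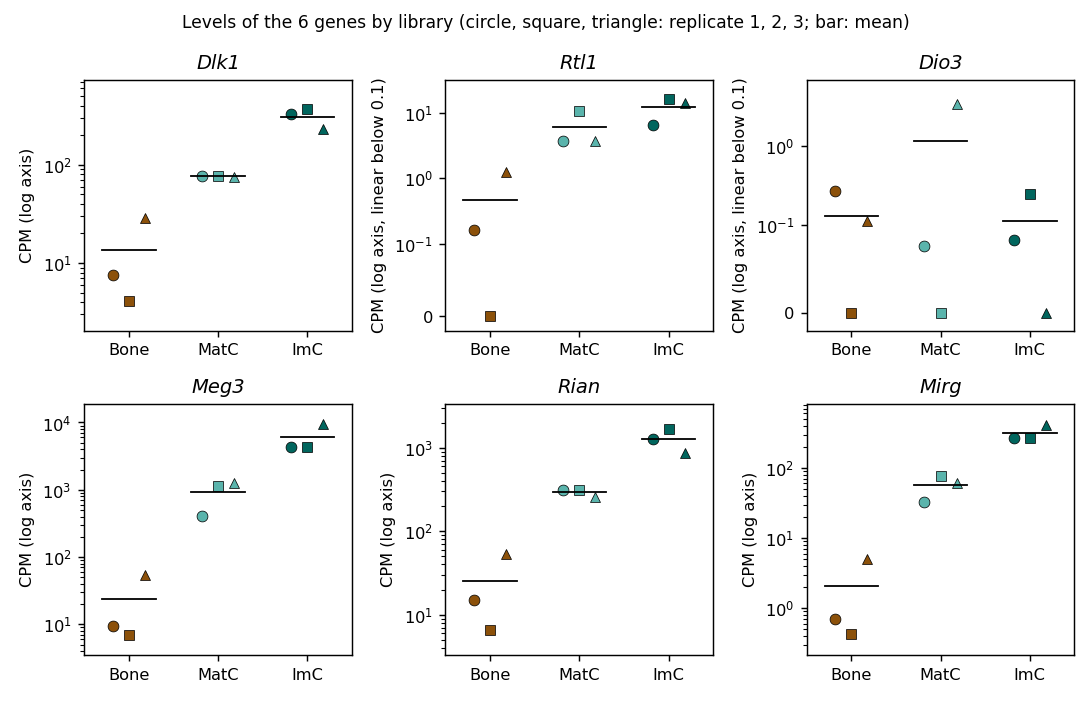
Levels in CPM of the 6 genes in each library of Bone, MatC and ImC, on log axes (linear below 0.1 CPM where a library had 0 reads), with a bar at each tissue mean. For Dlk1, Meg3, Rian and Mirg every Bone library lies below every MatC library and every MatC library below every ImC library.

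Dlk1, the paternally expressed transmembrane protein, had 7.53, 4.11 and 28.6 CPM in Bone, 77.7, 77.1 and 75.2 CPM in MatC and 328.6, 366.3 and 230.3 CPM in ImC. The tissues did not overlap, and the MatC libraries lay within 1.03-fold of each other. The level averaged 13.4 ± 13.3 CPM in Bone, 76.7 ± 1.27 CPM in MatC and 308.4 ± 70.2 CPM in ImC (SD, n = 3 each). These make fitted log2 fold changes of -2.51 ± 0.60 for Bone against MatC, -4.52 ± 0.66 for Bone against ImC and -2.01 ± 0.59 for MatC against ImC (SE).

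Rtl1, a paternally expressed gene derived from a retrotransposon and needed in the placenta and in fetal muscle, was low throughout. It had 3, 0 and 22 reads in Bone (0.162, 0 and 1.24 CPM), 50, 151 and 13 reads in MatC (3.79, 10.6 and 3.68 CPM) and 80, 326 and 201 reads in ImC (6.67, 16.2 and 14.3 CPM). Each Bone library was below each cartilage library, while MatC replicate 2 lay above ImC replicate 1. Its log2 fold changes were -3.63 ± 0.97 for Bone against MatC, -4.64 ± 1.002 for Bone against ImC and -1.01 ± 0.85 for MatC against ImC. Without MatC replicate 2, the values for Bone against MatC and for MatC against ImC were -2.90 and -1.72. The library kit does not mark strand, and an RNA that carries microRNA hairpins runs over the same bases in the opposite direction. Reads counted for Rtl1 can therefore come from either strand.

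Dio3, the enzyme that inactivates thyroid hormone, was close to the detection floor. It had 5, 0 and 2 reads in Bone, 1, 0 and 12 reads in MatC and 1, 5 and 0 reads in ImC. The 12 reads of MatC replicate 3 made 3.39 CPM in that shallow library, and no other library passed 0.271 CPM. The tissues overlapped, the gene did not pass the filter on low counts, and a difference between tissues was not detectable at this depth.

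Meg3, the maternally expressed long noncoding RNA, had the widest range of the 6 genes. Its level was 9.47, 7.02 and 54.8 CPM in Bone, 400.7, 1146 and 1266 CPM in MatC and 4369, 4380 and 9388 CPM in ImC. In ImC it ranked 16th, 16th and 17th of all genes by reads in the 3 libraries, with 52434, 88242 and 131820 reads. Its rank was 7072, 7919 and 1848 in the Bone libraries and 188, 41 and 51 in the MatC libraries. The log2 fold changes were -5.30 ± 0.91 for Bone against MatC, -7.99 ± 1.03 for Bone against ImC and -2.69 ± 0.80 for MatC against ImC.

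Rian, the maternally expressed host of box C/D snoRNAs, had 14.9, 6.59 and 54.1 CPM in Bone, 313.3, 307.8 and 257.1 CPM in MatC and 1273, 1668 and 865.9 CPM in ImC. Its log2 fold changes of -3.54 ± 0.68, -5.65 ± 0.75 and -2.12 ± 0.64 for Bone against MatC, Bone against ImC and MatC against ImC lay between those of Dlk1 and Meg3. Mirg, the maternally expressed host of a microRNA cluster, had 0.704, 0.428 and 5.07 CPM in Bone, 32.4, 76.8 and 60.5 CPM in MatC and 270.5, 265.5 and 408.4 CPM in ImC. Its log2 fold changes were -4.74 ± 0.82, -7.22 ± 0.91 and -2.48 ± 0.72 in the same order. For both host RNAs the 3 tissues did not overlap.

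**Figure D2:**
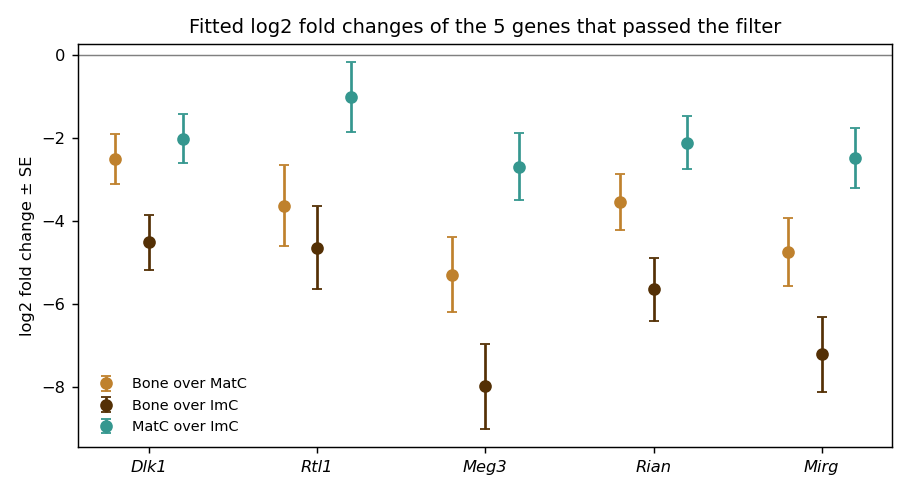
Fitted log2 fold changes with their standard errors for the 5 genes that passed the filter on low counts, for Bone over MatC, Bone over ImC and MatC over ImC. Every point is below 0, from -7.99 for Meg3 in Bone over ImC to -1.01 for Rtl1 in MatC over ImC.

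Counted over the genes, every Bone library was below every MatC library and below every ImC library for 5 of the 5 genes that passed the filter. Every MatC library was below every ImC library for 4 of the 5, Rtl1 being the exception. Over all 14257 genes tested, 17.7% lay that way for Bone against MatC, 28.8% for Bone against ImC and 12.5% for MatC against ImC. These counts describe genes chosen for this pattern, so nothing is read from them against that background. Dio3 overlapped in each comparison.

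Markers of the labelled cell types differed between tissues but did not all separate them. For 7 mature chondrocyte markers the sum was 1682 to 3311 CPM in Bone, 2945 to 13346 CPM in MatC and 142.9 to 611.8 CPM in ImC. Bone and MatC thus overlapped in that sum. The summed level of 9 immature chondrocyte markers, all detected in every library, was 412.7 to 822.7 CPM in Bone, 8557 to 20642 CPM in MatC and 13456 to 17750 CPM in ImC, so the 2 cartilage tissues overlapped in this sum where Dlk1, Meg3, Rian and Mirg did not. Of the 9, the chondrocyte transcription factor genes Sox5 (53.5 to 78.6 CPM in MatC and 215.7 to 374.3 CPM in ImC) and Sox6 (39.7 to 89.95 CPM in MatC and 110.5 to 210.6 CPM in ImC) did not overlap between MatC and ImC. Both were called lower in MatC by edgeR (log2 fold change -2.14 ± 0.30, adjusted p = 0.00444 for Sox5 and -1.38 ± 0.35, adjusted p = 0.0419 for Sox6). Comp, of the same 9, went the other way, with 486.8 to 1999 CPM in MatC and 127.0 to 415.0 CPM in ImC. Col2a1 was narrowly lower in MatC without overlap (4769 to 8400 CPM, against 8402 to 9782 CPM in ImC). Neither was called by edgeR. Of the 9, edgeR called 0 higher and DESeq2 called 1 higher and 2 lower, beside an edgeR background of 5.41% higher and 2.29% lower. The summed level of 8 osteoblast markers was 79628 to 94951 CPM in Bone, 1109 to 26281 CPM in MatC and 523.2 to 581.3 CPM in ImC. Within MatC the osteoblast sum spanned 1109 to 26281 CPM. In the same libraries Dlk1 lay between 75.2 and 77.7 CPM and Rian between 257.1 and 313.3 CPM. Meg3 ran from 400.7 to 1266 CPM there, Mirg from 32.4 to 76.8 CPM and Rtl1 from 3.68 to 10.6 CPM. The part of these cell types in the tissue differences was not tested.

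Bone replicate 3 was the highest Bone library for Dlk1, Rtl1, Meg3, Rian and Mirg, and Bone replicate 2 the lowest. Its level was 6.96 times that of Bone replicate 2 for Dlk1, 7.80 times for Meg3, 8.20 times for Rian and 11.8 times for Mirg. Without Bone replicate 3, the log2 fold changes of Dlk1, Meg3, Rian, Mirg and Rtl1 were -3.69, -6.81, -4.75, -6.57 and -5.87 for Bone against MatC. For Bone against ImC they were -5.70, -9.49, -6.86, -9.04 and -6.89 in the same order. The sum of 9 immature chondrocyte markers was not higher in that library, with 822.7, 503.2 and 412.7 CPM in Bone replicates 1, 2 and 3. The sum of 12 skeletal muscle markers was, with 15.4, 11.4 and 111.6 CPM in Bone (1, 4 and 1 of the 12 at 0). It was 30.1, 393.5 and 64.8 CPM in MatC (2, 1 and 3 at 0) and 11.2, 11.1 and 28.0 CPM in ImC (7, 6 and 2 at 0). MatC replicate 2, where that sum was highest, was the highest MatC library for Rtl1 and Mirg but not for Dlk1, Meg3 or Rian. The sum of 8 endothelial markers was 39.7, 114.3 and 128.4 CPM in Bone replicates 1, 2 and 3. That of 6 preadipocyte and adipocyte markers was 15.1, 30.7 and 36.5 CPM (2, 1 and 2 of the 6 at 0). Both sums were thus also highest in Bone replicate 3. Most of the latter sum was Fabp4 (6.44, 15.5 and 16.6 CPM) and Lpl (6.01, 12.5 and 16.8 CPM). Lpl was higher in MatC, at 80.2 to 159.0 CPM, and Adipoq and Plin1 were at most at 0.0856 CPM in Bone. The part of muscle, endothelial or adipocyte RNA in these values was not tested.

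**Figure D3:**
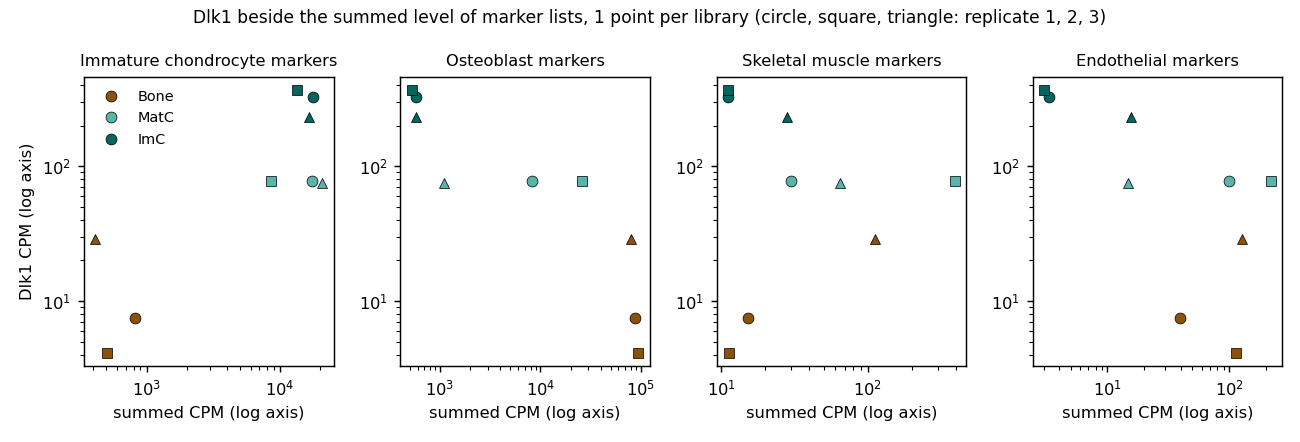
Dlk1 in CPM against the summed CPM of 4 marker lists, 1 point per library, with log axes. Dlk1 is at 75.2 to 77.7 CPM in the 3 MatC libraries, whose osteoblast sums run from 1109 to 26281 CPM. Bone replicate 3 (brown triangle) has the highest Dlk1 and the highest muscle and endothelial sums of the Bone libraries. The part of these cell types in the Dlk1 values was not tested.

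Of the pairs among Dlk1, Rian, Meg3 and Mirg, the ratio of reads was steadiest over the 9 libraries for Meg3 with Mirg and for Dlk1 with Rian, which are expressed from opposite parental copies. Both pairs were singled out after their values were seen. Dlk1 had 50.5, 62.3 and 52.9 reads per 100 Rian reads in Bone, 24.8, 25.0 and 29.3 in MatC and 25.8, 22.0 and 26.6 in ImC. The highest of these ratios was 1.33 times the lowest over the 6 cartilage libraries and 2.84 times over all 9, although both genes differed several-fold between MatC and ImC. Mirg had 7.43, 6.10 and 9.25 reads per 100 Meg3 reads in Bone, 8.10, 6.71 and 4.78 in MatC and 6.19, 6.06 and 4.35 in ImC, and the highest was 2.13 times the lowest over all 9 libraries. Across the pairs the ratios varied more. Rian had 157.1, 93.9 and 98.7 reads per 100 Meg3 reads in Bone, 78.2, 26.9 and 20.3 in MatC and 29.1, 38.1 and 9.22 in ImC. The highest of these was 17.04 times the lowest. Dlk1 per Meg3 read spanned 32.4-fold, Dlk1 per Mirg read 18.96-fold and Rian per Mirg read 9.98-fold over the 9 libraries. These ratios use raw reads, so they do not depend on how libraries were scaled.

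**Figure D4:**
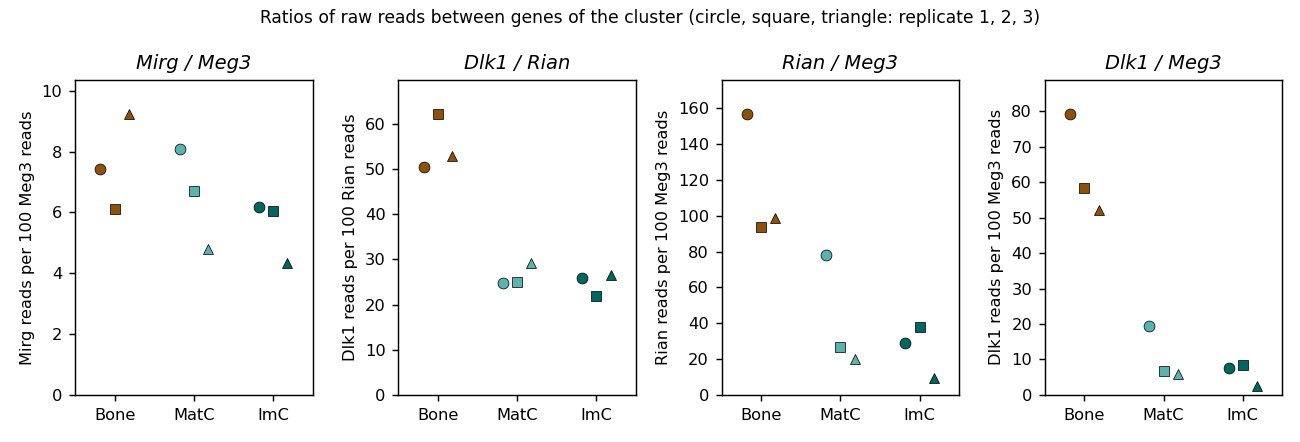
Reads of 1 gene per 100 reads of another in each library of Bone, MatC and ImC, on linear axes from 0. Dlk1 per Rian is at 22.0 to 29.3 in all 6 cartilage libraries and at 50.5 to 62.3 in Bone, whereas Rian per Meg3 lies between 157.1 in Bone replicate 1 and 9.22 in ImC replicate 3.

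Within the cartilage tissues, Dlk1 and Rian ranked the libraries in the same order, while Meg3 and Mirg shared 1 extreme in each tissue. In ImC, replicate 3 had the most Meg3 and Mirg and the least Dlk1 and Rian. In MatC, replicate 1 had the least Meg3 and Mirg and the most Dlk1 and Rian. ImC replicate 3 had 55.0% mitochondrial counts, the most of its tissue, and MatC replicate 1 had 33.7%, the least of its tissue; the part of that in the ratios was not tested. Library preparation began with 1 round of amplification from poly(A) RNA, and differences in the 3' ends of these transcripts between libraries were not measured here.

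Over the 9 libraries, the gene with the level most like that of Meg3 among 14256 others was Mirg (Pearson r of log2 CPM 0.998), and the gene most like Dlk1 was Rian (r = 0.996). After Mirg, the next most like Meg3 were RP23-65G17.2 (0.986), Rbm33 (0.982), Trpm5 (0.979) and RP23-204I16.3 (0.979). After Rian, the next most like Dlk1 were RP23-204I16.3 (0.994), Mirg (0.981), Gm22579 (0.981) and Gm16192 (0.979). In the order of likeness to Meg3, Rian was at rank 21, Dlk1 at 32 and Rtl1 at 70, and in that for Dlk1, Meg3 was at rank 11 and Rtl1 at 35. Because the 3 tissues stand apart from each other, high values were common: 546 genes had r of at least 0.9 with Meg3 and 243 with Dlk1. By Spearman's rho, Mirg was at rank 86 for Meg3 (0.967) and Rian was tied for the first rank for Dlk1 (1). The other listed genes lay far lower by that measure. For Meg3, Rtl1 was at rank 616, Dlk1 at 695 and Rian at 788. For Dlk1, Rtl1 was at rank 188, Meg3 at 330 and Mirg at 333. RP23-204I16.3, a clone-named entry that the annotation used here does not place, had 0.704, 0.257 and 6.48 CPM in Bone, 30.9, 65.1 and 27.7 CPM in MatC and 278.4, 316.4 and 218.6 CPM in ImC.

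Per length of exon, Meg3 was the most abundant of the 6 genes in cartilage. Its level per kb was 1.31 ± 1.49 CPM in Bone, 51.8 ± 25.9 CPM in MatC and 334.2 ± 160.0 CPM in ImC (SD, n = 3). In ImC, Rian had 69.6 ± 22.0 CPM per kb, Dlk1 54.5 ± 12.4, Mirg 43.2 ± 11.1, Rtl1 1.95 ± 0.79 and Dio3 0.0544 ± 0.0622. The genes share their libraries, so these SDs do not measure the spread of a difference between genes. Rian was above Dlk1 in each ImC library, while Mirg was above both in ImC replicate 3. In Bone, Dlk1 had the highest mean, 2.37 ± 2.35 CPM per kb, followed by Rian at 1.38 ± 1.39 and Meg3 at 1.31 ± 1.49. Dlk1 was above Rian and above Meg3 in each Bone library. Exonic length is that of all annotated exons together, and amplification from poly(A) tails favours the 3' end, so these levels are approximate.

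Between Dlk1 and Dio3 the annotation places 117 genes, most of them microRNAs and snoRNAs. The count table has 95 of them, of which 46 had 0 reads in all libraries and 26 had at least 10 reads, the 6 listed genes and 20 more. Of the 20, 19 had a pooled level in ImC above that in MatC and a level in MatC at or above that in Bone, Mir453 being the exception with 1 read in Bone, 0 in MatC and 13 in ImC. Reads of 14 of the 20 were absent from Bone. The 20 reached 10 reads mainly through ImC, and 7 of them had no read in MatC or Bone. Both counts are therefore largely set by that cut, and nothing is read from them. Like the 6 genes, the 20 are given as a description.

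The noncoding gene B830012L14Rik (chr12:109695586-109702587, plus strand), between Rian and Mirg, had 5, 7 and 77 reads in Bone, 238, 567 and 30 in MatC and 1823, 3685 and 923 in ImC. Its log2 fold changes were -3.66 for Bone against MatC, -6.23 for Bone against ImC and -2.57 for MatC against ImC. Gm26945 had no read in Bone, 11, 24 and 0 reads in MatC and 166, 245 and 268 reads in ImC. Set against 3 reads in all 3 Bone libraries together as the floor, it was at least 18.1-fold lower in Bone than in MatC and at least 234.8-fold lower in Bone than in ImC.

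The snoRNA entries were also lowest in Bone and highest in ImC. Together, 22 of them had 12 reads in Bone, 93 in MatC and 1017 in ImC, and 13 of the 22 had none. The annotation places 12 inside Rian (4 reads in Bone, 25 in MatC and 335 in ImC) and 10 beyond its end (8 reads in Bone, 68 in MatC and 682 in ImC). Some entries inside Rian that had no reads overlap its exons, where reads shared by 2 entries may not have been counted. Beyond Rian, Gm22205 held the most, with 7 reads in Bone, 57 in MatC and 488 in ImC, followed by Gm25224 with 1, 10 and 174. Gm25357 (2, 6 and 86 reads) and DQ267101 (2, 6 and 69 reads) had a few reads in Bone, while Gm24564 (0, 9 and 86), Gm23600 (0, 0 and 73), DQ267102 (0, 4 and 21) and Gm25854 (0, 1 and 11) had none.

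The microRNA entries count reads over the hairpin gene in these long-RNA libraries and not the mature microRNA. Together, 59 entries had 1 read in Bone, 40 in MatC and 434 in ImC, and 30 of them had none. Some of the 30 overlap an exon of Meg3, Rtl1 or Mirg, where shared reads may not have been counted. Mir337 held the most, with 0, 0 and 0 reads in Bone, 7, 11 and 8 in MatC and 50, 70 and 127 in ImC. Set against the same floor, it was at least 13.4-fold lower in Bone than in MatC and at least 85.4-fold lower in Bone than in ImC. Of the rest, Mir300 had 29 reads in ImC, Mir341 18, Mir679 13, Mir654 12, Mir758 11, Gm23912 11, Mir370 10 and Mir673 8, with none of these in Bone and at most 4 in MatC. Several of these sums rest mostly on 1 library. ImC replicate 2 held all 12 reads of Mir654 and 10 of 11 for Mir758 and Gm23912. ImC replicate 3 held 21 of 29 for Mir300 and 10 of 13 for Mir679. Mir341 and Mir370 had reads in ImC replicates 1 and 2 only, and Mir673 in all 3.

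RefSeq holds 58 microRNA hairpins of the cluster with 114 mature sequences, which carry 104 different seeds, and 10 seeds are shared by more than 1 of them. The 2 arms of Mir337 are shown because its entry had the most reads, and 1 arm each of Mir127 and Mir136 because these hairpins lie inside the Rtl1 exon on the opposite strand, as those of Mir431, Mir432, Mir433 and Mir434 do. Capitals mark the seed, bases 2 to 8.
miR-337-5p: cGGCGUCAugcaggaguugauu
miR-337-3p: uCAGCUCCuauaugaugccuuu
miR-127-3p: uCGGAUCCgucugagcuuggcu
miR-136-5p: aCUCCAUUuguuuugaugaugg
These 4 seeds differ from each other. The entries of Mir127, Mir136, Mir431, Mir432, Mir433 and Mir434 had 0 reads in all 9 libraries. How reads shared by 2 overlapping entries were counted is not given, so these 0 counts are not read as absence of RNA. Rtl1 and the RNA that carries these hairpins are transcribed in opposite directions over the same bases, and the library kit does not mark strand. Reads given above for Rtl1 can therefore come from either strand, and the 2 cannot be told apart.

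**Figure D5:**
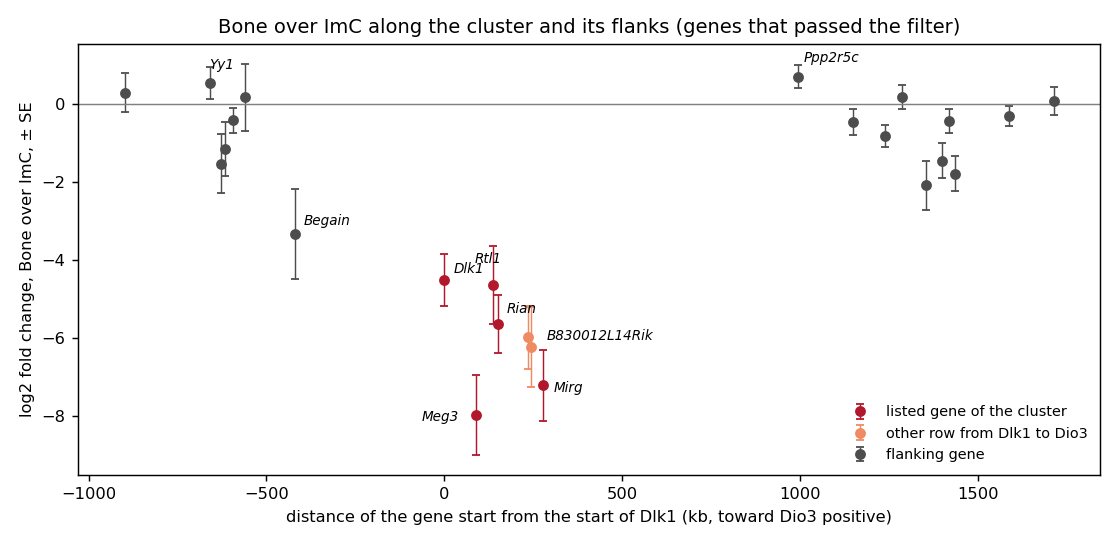
Fitted log2 fold change with its standard error, Bone over ImC, against distance from the start of Dlk1 in kb, for genes that passed the filter and had more than 3 reads in Bone. The 5 listed genes lie between -4.52 and -7.99, with 2 other genes of the cluster in orange, and the 17 flanking genes between -3.33 for Begain and 0.69 for Ppp2r5c.

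The genes on either side of the cluster were compared with the same test, edgeR's quasi-likelihood test with Benjamini-Hochberg adjustment over all genes. Of 18 flanking genes from Evl to Traf3, 17 were tested. For Bone against ImC, 3 were called lower and none higher (5 lower and 1 higher at an unadjusted p under 0.05, and 5 lower and 0 higher by DESeq2). The background for this comparison was 16.8% of all genes called lower and 14.3% called higher. The 3 were Tecpr2, an autophagy protein (log2 fold change -1.79 ± 0.44, adjusted p = 0.0133), the zinc finger gene Zfp839 (-1.45 ± 0.44, adjusted p = 0.0313) and the kinase gene Mok (-2.09 ± 0.64, adjusted p = 0.0315), all on the Dio3 side. Their calls ended when single libraries were left out: Tecpr2 without Bone replicate 2 or 3 (adjusted p up to 0.0629), Zfp839 without any 1 Bone library or ImC replicate 3 (up to 0.121), and Mok without any 1 Bone library or ImC replicate 2 or 3 (up to 0.145). Scaling by library size alone ended them too (adjusted p = 0.192, 0.294 and 0.194).

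For Bone against MatC and for MatC against ImC, no flanking gene was called by edgeR. The background was 1.36% called higher and 4.69% lower for Bone against MatC, and 5.41% and 2.29% for MatC against ImC. At an unadjusted p under 0.05, 1 was higher and 1 lower for Bone against MatC, and 2 were lower for MatC against ImC, while DESeq2 called 1 and 0. Begain, the neighbour on the Dlk1 side, had 0.162, 0.428 and 0.338 CPM in Bone, 0.455, 1.41 and 3.39 CPM in MatC and 0.667, 0.695 and 8.05 CPM in ImC. It was not called by edgeR in any comparison, while DESeq2 called it lower in Bone than in ImC (adjusted p = 0.00989). The median log2 fold change of the flanking genes was -0.22 for Bone against MatC, -0.44 for Bone against ImC and -0.22 for MatC against ImC, beside -0.03, -0.02 and 0.03 over all genes tested.

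Genes that carry, bind or answer to thyroid hormone, the substrate of DIO3, differed between the tissues in several cases. Of 14 tested, 1 was called higher and 2 lower for Bone against MatC, where the background was 1.36% called higher and 4.69% called lower. Crym, which binds thyroid hormone in the cytosol, had 40.6, 50.7 and 42.7 CPM in Bone, 0.758, 3.17 and 0 CPM in MatC and no read in ImC. It was higher in Bone than in MatC (log2 fold change 4.87 ± 0.80, adjusted p = 0.0136), a call that ended without any 1 Bone library (adjusted p up to 0.0731). Set against 3 reads in all 3 ImC libraries together, Crym was at least 675.2-fold higher in Bone than in ImC (adjusted p = 0.000707) and at least 27.4-fold higher in MatC than in ImC (adjusted p = 0.0265). The last call ended without any 1 Bone library, MatC replicate 2 or ImC replicate 1 or 2 (adjusted p up to 0.0618).

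Thrb, a thyroid hormone receptor, was highest in MatC, with 0.975, 0.685 and 0.957 CPM in Bone, 19.2, 9.80 and 20.6 CPM in MatC and 1.33, 0.0496 and 0.712 CPM in ImC. Its log2 fold change was 4.61 ± 0.82 for MatC against ImC (adjusted p = 0.0125) and -4.22 ± 0.80 for Bone against MatC (adjusted p = 0.0155). The Bone call ended without any 1 Bone library (adjusted p up to 0.0986). Together with Crym, Thrb made 2 of 14 genes called higher and none lower for MatC against ImC (5 lower at an unadjusted p under 0.05, and 1 by DESeq2), beside a background of 5.41% and 2.29%.

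For Bone against ImC, 2 of the 14 were called higher and 5 lower, beside a background of 14.3% and 16.8%. The corepressor Hr had 0.487, 0.514 and 0.169 CPM in Bone and 5.67, 4.02 and 3.92 CPM in ImC (log2 fold change -3.53 ± 0.63, adjusted p = 0.00337). Besides Crym, the hormone-responsive factor Klf9 was higher (1.81 ± 0.44, adjusted p = 0.013), and the receptor Thra was lower (-1.69 ± 0.40, adjusted p = 0.0119). The call of Klf9 ended without Bone replicate 1 (adjusted p = 0.0566) and that of Thra without Bone replicate 1 or 2 (up to 0.0576). Scaling by library size alone left Crym and Hr called for Bone against ImC, Crym for Bone against MatC and Thrb for MatC against ImC. The median log2 fold change of the 14 was -0.21 for Bone against MatC, -0.38 for Bone against ImC and -0.42 for MatC against ImC. Dio2, the enzyme that activates the hormone, had 3.95, 0.514 and 0.282 CPM in Bone, 1.90, 0.141 and 0.283 CPM in MatC and 0.750, 1.19 and 0.570 CPM in ImC and was not called by edgeR or DESeq2.

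Regulators of imprints and chromatin that were called were lower in Bone or in MatC. Of 19 tested, 8 were called lower in Bone than in ImC and none higher (0 higher at an unadjusted p under 0.05 and 0 by DESeq2), beside a background of 16.8% called lower and 14.3% called higher. The 8 calls became 5, 4 and 4 without Bone replicates 1, 2 and 3, and 5 without ImC replicate 1. The 4 with the smallest p were Aff3 (log2 fold change -2.95 ± 0.50, adjusted p = 0.00257), whose protein binds the control region of the cluster in mouse embryonic stem cells, the structural chromatin gene Smchd1 (-1.27 ± 0.24, adjusted p = 0.00435), the demethylating enzyme gene Tet3 (-1.51 ± 0.29, adjusted p = 0.00461) and the Polycomb enzyme gene Ezh2 (-1.58 ± 0.31, adjusted p = 0.00511). For MatC against ImC, 4 were called lower, beside a background of 2.29%, and none higher (1 higher at an unadjusted p under 0.05 and 0 by DESeq2), namely Tet1, Smchd1, Dnmt1 and Ctcf, with log2 fold changes of -1.62 ± 0.35, -1.04 ± 0.24, -1.29 ± 0.30 and -1.30 ± 0.32 (adjusted p = 0.0244, 0.0305, 0.0308 and 0.0387).

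For Bone against MatC, 2 of the 19 were called lower, beside a background of 4.69%, Aff3 (-2.08 ± 0.49, adjusted p = 0.0346) and Zfp57 (-2.80 ± 0.71, adjusted p = 0.0457), and none higher (1 higher at an unadjusted p under 0.05 and 0 by DESeq2). Zfp57, whose protein reads the TGCCGC motif, had 1.79, 1.88 and 3.83 CPM in Bone, 6.06, 11.2 and 36.2 CPM in MatC and 5.00, 3.08 and 9.12 CPM in ImC. Each of the 2 calls for Bone against MatC and of the 4 for MatC against ImC ended without any 1 Bone library, and also without 1 or more cartilage libraries. For Zfp57 these were MatC replicate 2 or 3 and ImC replicate 1 (adjusted p up to 0.195), and for Aff3 MatC replicate 1 or 3 and ImC replicate 1 (up to 0.15). For Tet1 they were MatC replicate 2 and ImC replicate 1 or 2 (up to 0.0782), for Smchd1 any 1 MatC library and ImC replicate 1 (up to 0.0822), for Dnmt1 MatC replicate 1 or 3 and ImC replicate 1 or 2 (up to 0.0889), and for Ctcf any 1 MatC library and ImC replicate 1 or 3 (up to 0.0955). With scaling by library size alone, 0 regulators were called in any comparison. The median log2 fold change of the regulators was -0.15 for Bone against MatC, -0.64 for Bone against ImC and -0.55 for MatC against ImC.

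Relatives of the coding genes were few. Dlk2, the paralog of Dlk1, averaged 0.197 ± 0.220 CPM in Bone, 3.42 ± 2.95 CPM in MatC and 0.227 ± 0.197 CPM in ImC. By edgeR it was not called (adjusted p = 0.0728 for Bone against MatC and 0.0724 for MatC against ImC), while DESeq2 called it lower in Bone than in MatC (adjusted p = 0.00451) and higher in MatC than in ImC (adjusted p = 0.00548). Of 7 relatives tested, Peg10 and Zcchc5 (also named Rtl3), retrotransposon-derived genes like Rtl1, were called lower in Bone and none was called higher (0 higher at an unadjusted p under 0.05 and 0 by DESeq2). The background of genes called lower was 16.8% for Bone against ImC and 4.69% for Bone against MatC. Against ImC, the log2 fold change was -3.09 ± 0.42 for Peg10 (adjusted p = 0.000963) and -4.76 ± 0.74 for Zcchc5 (adjusted p = 0.00177). Against MatC, it was -2.12 ± 0.42 for Peg10 (adjusted p = 0.0178) and -3.91 ± 0.71 for Zcchc5 (adjusted p = 0.0134). Both calls against MatC ended without any 1 Bone library (adjusted p up to 0.105 and 0.0565) and with scaling by library size alone (0.256 and 0.106). For MatC against ImC no relative was called by edgeR (1 higher and 1 lower at an unadjusted p under 0.05, and 1 higher by DESeq2). The background there was 5.41% called higher and 2.29% called lower. The median log2 fold change of the 7 was -1.10 for Bone against MatC, -0.18 for Bone against ImC and -0.10 for MatC against ImC.

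Among 13 other long noncoding RNAs tested, 5 were called lower in Bone than in ImC and 2 lower in Bone than in MatC, with none higher (0 higher at an unadjusted p under 0.05 and 0 by DESeq2 in both). The background of genes called lower was 16.8% and 4.69%. With scaling by library size alone the counts were 2 and 0, and the calls of H19 against MatC, of Kcnq1ot1 in both comparisons, of Ftx and of Neat1 ended. H19, the maternally expressed RNA of another imprinted domain, had 504.8, 318.4 and 550.5 CPM in Bone, 2868, 2538 and 4136 CPM in MatC and 5040, 7634 and 11124 CPM in ImC. Its log2 fold changes were -4.11 ± 0.47 for Bone against ImC (adjusted p = 0.000355) and -2.80 ± 0.44 for Bone against MatC (adjusted p = 0.00641; 0.0545 without Bone replicate 2). The imprinted antisense RNAs Airn (-2.52 ± 0.41, adjusted p = 0.00222) and Kcnq1ot1 (-2.11 ± 0.38, adjusted p = 0.00356) and the X-linked Ftx (-1.56 ± 0.37, adjusted p = 0.0111) were lower in Bone than in ImC. The call of Ftx ended without Bone replicate 1 or 3 (adjusted p up to 0.0618). Kcnq1ot1 was also lower in Bone than in MatC (-1.65 ± 0.38, adjusted p = 0.0313), a call that ended without any 1 Bone library, MatC replicate 3 or ImC replicate 1 (up to 0.165). For MatC against ImC, edgeR called Neat1 alone (DESeq2 called 1 higher and 2 lower), beside a background of 5.41% called higher and 2.29% called lower. Neat1 was higher by 1.84 ± 0.43 (adjusted p = 0.0316), a call that ended without Bone replicate 1 or 3, MatC replicate 2 or 3 or ImC replicate 1 or 2 (up to 0.112). The median log2 fold change of the 13 was -1.17 for Bone against MatC, -0.76 for Bone against ImC and -0.16 for MatC against ImC.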

How the data were processed

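Gene expression was measured by RNA sequencing in 3 libraries each of Bone, MatC and ImC, grouped by the library titles. Per the labels' protocols, RNA was amplified for 1 round and sequenced after a TruSeq v2 preparation, a kit that does not mark strand. The submitters' processing notes name mm10 (the assembly GRCm38) and the programs HTSeq, Bowtie2, TopHat2, edgeR and Trimmomatic 0.30, while the task and settings of each are not given in the sources used here. Deposited by the authors were raw read counts for 43472 gene symbols, with 0 entries that name no gene and 0 columns without a sample, and a second table of 13302 genes with whole-number normalized values, deposited by the authors as a score and used here only as an alternative scaling. Amplified reads are not independent molecules, so floors of 3 reads cover counting error only.

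Counts were tested with edgeR 4.0.16 (R 4.3.3), by the quasi-likelihood test with Benjamini-Hochberg adjustment over all genes. The filter filterByExpr with a minimum count of 10 left 14257 genes holding at least 99.8% of each library's counts, 1 fit took all 9 libraries with a mean for each tissue, and called means an adjusted p under 0.05. Libraries were scaled by TMM (trimmed mean of M values) factors, and CPM are counts per 1000000 after that scaling. The SE of a log2 fold change is its size over the square root of F. A pooled level is the reads of a tissue over its summed scaled library sizes. DESeq2 1.42.0 was an alternative. The procedure was tested on simulated counts.

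The 6 genes and all gene lists were chosen with earlier results of these data known, so differences of the 6 between tissues carry no test. The rule for named genes took the 6, every entry from Dlk1 to Dio3 with at least 10 reads, at most 4 called genes per list, comparison and direction by smallest p, and the 5 genes most like Meg3 and the 5 most like Dlk1 by Pearson correlation of log2 CPM (prior count 2). Some called genes that this rule names are not reported here by name, though counts of calls include them. Positions of genes are from GENCODE M21, matched by symbol, and promoter and microRNA sequences from RefSeq (GRCm38.p6). Reads of entries that overlap in their exons, such as Meg3, Rian or Mirg and the small RNAs they host, could be split by the counting. Alternatives covered the scaling, the filter, the test, the libraries in the fit, the replicate numbers and the measure of likeness.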

Additional observations from a re-analysis of the deposited data

How the results depend on the processing

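All 15 log2 fold changes of Dlk1, Meg3, Rian, Mirg and Rtl1 kept their sign under every setting tried. Scaling by library size alone moved the median of all genes by 0.98 for Bone against MatC, 0.48 for Bone against ImC and -0.54 for MatC against ImC. Under it, Bone against MatC was -1.50 for Dlk1 and -3.92 for Meg3, and MatC against ImC was -2.57 for Dlk1, -2.66 for Rian and -3.16 for Mirg. With 1 library left out at a time, Bone against MatC ran from -3.69 to -2.07 for Dlk1, -6.81 to -4.85 for Meg3, -4.75 to -3.07 for Rian, -6.57 to -4.27 for Mirg and -5.87 to -2.90 for Rtl1. Bone against ImC ran from -5.70 to -4.07, -9.49 to -7.52, -6.86 to -5.18, -9.04 to -6.74 and -6.89 to -4.11 for the same genes, and the lowest value was in each case that without Bone replicate 3. Ratios of the authors' deposited normalized values (a score) lay within 0.10 of the fitted log2 fold changes. With Spearman's rho in place of Pearson's r, Mirg moved to rank 86 of the genes most like Meg3. Rtl1, Dlk1 and Rian moved to ranks 616, 695 and 788.

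The counts of genes called were 863 for Bone against MatC, 4432 for Bone against ImC and 1099 for MatC against ImC. With library size alone they were 297, 2073 and 358, and the share called higher was 40.1%, 59.0% and 53.4%, against 22.5%, 46.0% and 70.2%. Without the filter, Bone against MatC had 1504 and MatC against ImC 1690, and DESeq2 called 1952 and 2257. With only the 2 groups compared, Bone against MatC had 1204 calls, 36.7% of them higher, and MatC against ImC 205. Leaving out 1 library at a time gave 167 to 1702 calls for Bone against MatC, 2343 to 5408 for Bone against ImC and 355 to 1240 for MatC against ImC. The low counts for Bone against MatC came without Bone replicate 1, 2 or 3 (196, 167 and 238), and the high count without ImC replicate 3. Deviations of same-numbered libraries from their tissue means correlated at -0.13 to 0.24 over genes, above 0.1 in 2 of 9 pairs. Both were pairs of MatC with ImC (0.228 for replicate 1 and 0.240 for replicate 3). Not every library correlated best with its own number. With 3 libraries per tissue, these values cannot decide whether the replicate numbers pair the libraries. A replicate block gave 725 calls for MatC against ImC, and among the lists it kept 1 of the 3 flanking calls for Bone against ImC, 1 of the 2 regulator calls for Bone against MatC and 2 of the 4 for MatC against ImC. Depth limits Dio3 and the small RNA entries most, and MatC replicate 3, where 3 reads are 0.849 CPM, limits low levels in MatC.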
